A study of Mus musculus with 9 samples.

Results

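Interferon-induced genes are described here in dendritic cells (DCs), the cells that take up antigen and present it to T cells. A list of 39 such genes was looked up by gene symbol among the probe sets of Affymetrix arrays, and 32 of them had a probe set with their symbol alone on both array designs used. The remaining 7 had none: Irf2, Stat2, Oas1a, Oasl2, Tgtp1, Xaf1 and Bst2. The 32 stand against 8251 genes on one design and 8220 on the other. RNA came from DCs at day 10 of 3 groups: wild-type B6, CIITA-/-, named for the activator of MHC class II transcription, and IAb-/-, named for a class II molecule. The labels give no age, treatment or stimulus for any group, do not describe either mutant allele, and name no separate mice or cultures behind the arrays. P-values therefore cover the spread between arrays, which may be technical, and nothing more. Each group had 3 arrays, 1 from each of experiments 1, 2 and 3.

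Interferons are secreted proteins that bind surface receptors and act through JAK kinases on STAT transcription factors. Type I interferons act largely through the interferon-stimulated response element (ISRE), a DNA element bound by a complex that holds IRF9, while interferon gamma acts largely through the gamma-activated site (GAS). Their targets hold back viruses and other microbes inside the cell, and some of them, such as the factors that raise antigen processing, also serve presentation to T cells. DCs both make interferons and respond to them, and some targets keep a steady level in unstimulated cells.

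The upstream sequences of 6 members show the 2 elements for which the list is known. They are the 250 bases before the start of the gene in RefSeq, on the gene's own strand, build GRCm38.p6. Ifit1, Isg15 and Rsad2 stand for the antiviral members that were below the noise limit defined below on all 9 arrays, Gbp2 for the bright members with an ISRE, and Irf1 and Samhd1 for the bright members with a GAS. Capitals mark ISRE matches, GAAA followed by any 2 bases and GAAA again on either strand, in the first 4 sequences, and GAS matches, TTC and GAA with any 3 bases between them on either strand, in the last 2. The Ifit1 sequence is chr19:34640639-34640888 on the plus strand, Isg15 chr4:156200819-156201068 on the minus strand, Rsad2 chr12:26456453-26456702 on the minus strand, Gbp2 chr3:142620413-142620662 on the plus strand, Irf1 chr11:53769764-53770013 on the plus strand and Samhd1 chr2:157135097-157135346 on the minus strand.
Ifit1: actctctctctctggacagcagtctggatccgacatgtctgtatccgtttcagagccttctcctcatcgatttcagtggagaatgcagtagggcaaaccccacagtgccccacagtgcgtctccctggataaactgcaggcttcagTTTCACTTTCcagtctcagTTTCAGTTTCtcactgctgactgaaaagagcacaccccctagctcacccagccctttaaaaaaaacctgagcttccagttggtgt
Isg15: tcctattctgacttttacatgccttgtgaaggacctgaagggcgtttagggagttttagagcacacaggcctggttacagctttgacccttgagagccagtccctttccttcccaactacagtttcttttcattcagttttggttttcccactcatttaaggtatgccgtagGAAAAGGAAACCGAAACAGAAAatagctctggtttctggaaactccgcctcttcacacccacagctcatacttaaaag
Rsad2: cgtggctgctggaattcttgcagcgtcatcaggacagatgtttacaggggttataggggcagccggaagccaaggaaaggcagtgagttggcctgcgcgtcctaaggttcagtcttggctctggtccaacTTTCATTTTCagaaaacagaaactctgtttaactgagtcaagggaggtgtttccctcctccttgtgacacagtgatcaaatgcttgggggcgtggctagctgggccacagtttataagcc
Gbp2: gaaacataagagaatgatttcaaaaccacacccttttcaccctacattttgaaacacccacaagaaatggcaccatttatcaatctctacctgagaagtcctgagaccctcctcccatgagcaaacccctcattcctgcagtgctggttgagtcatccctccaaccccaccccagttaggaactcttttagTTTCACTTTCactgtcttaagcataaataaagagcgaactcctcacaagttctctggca
Irf1: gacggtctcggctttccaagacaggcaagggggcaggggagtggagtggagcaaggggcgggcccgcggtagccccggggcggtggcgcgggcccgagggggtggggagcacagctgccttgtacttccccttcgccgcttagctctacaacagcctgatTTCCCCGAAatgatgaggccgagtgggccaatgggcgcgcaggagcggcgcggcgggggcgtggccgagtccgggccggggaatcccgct
Samhd1: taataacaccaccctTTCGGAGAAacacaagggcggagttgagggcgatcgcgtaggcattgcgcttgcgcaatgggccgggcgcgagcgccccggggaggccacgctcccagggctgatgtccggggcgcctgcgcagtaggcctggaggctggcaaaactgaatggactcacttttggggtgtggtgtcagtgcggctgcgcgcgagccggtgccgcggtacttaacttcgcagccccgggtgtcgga

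Ifit1 holds 2 ISRE matches, whose nearer ends lie 95 and 76 bases before the start, and Isg15 holds 3 that overlap one another, 69, 63 and 57 bases before it. The single matches of Rsad2 and Gbp2 lie 111 and 50 bases before their starts. The GAS match of Irf1 lies 82 bases before the start and that of Samhd1 227. Of the listed members, 32 had a promoter in the RefSeq table; these are not the same 32 as those measured. An ISRE match was present in 15 of them, against 3.46% of 27025 genes. A GAS match was present in 10, against 8.13% of genes, and 5 members held both. Of those above the noise limit on all 9 arrays, 7 had a promoter, 2 of them with an ISRE match and 2 with a GAS match. Of those below it on all 9, 15 had a promoter, 8 of them with an ISRE match and 4 with a GAS match. A match is a description of the letters and says nothing about binding in these cells.

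Levels are deposited intensities in arbitrary linear units, of which 22.1% lie below 0 in the table of experiments 2 and 3 and 25.7% in that of experiment 1. A noise limit was set at the 95th percentile of the sizes of these negative values, 1701.2 in the table of experiments 2 and 3 and 2202.7 in that of experiment 1, which used another array design. Above it on all 9 arrays were 7 members: Irf1, Irf9, Gbp2, Gbp3, Psme1, Lgals3bp and Samhd1. That is 21.9% of the 32 members, beside 29.5% of the 8084 genes on both designs. Below it on all 9 arrays were 18 members, or 56.2%, beside 50.2% of genes. The other 7 (Mx1, Mx2, Ifi35, Adar, Ifi27, Ifitm3 and Ly6e) lay on both sides. Where a member had several probe sets, the one with the highest mean in its table was used. For 29 members it was the same probe set on both designs, the exceptions being Igtp, Ifi204 and Ifitm3.

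**Figure D1:**
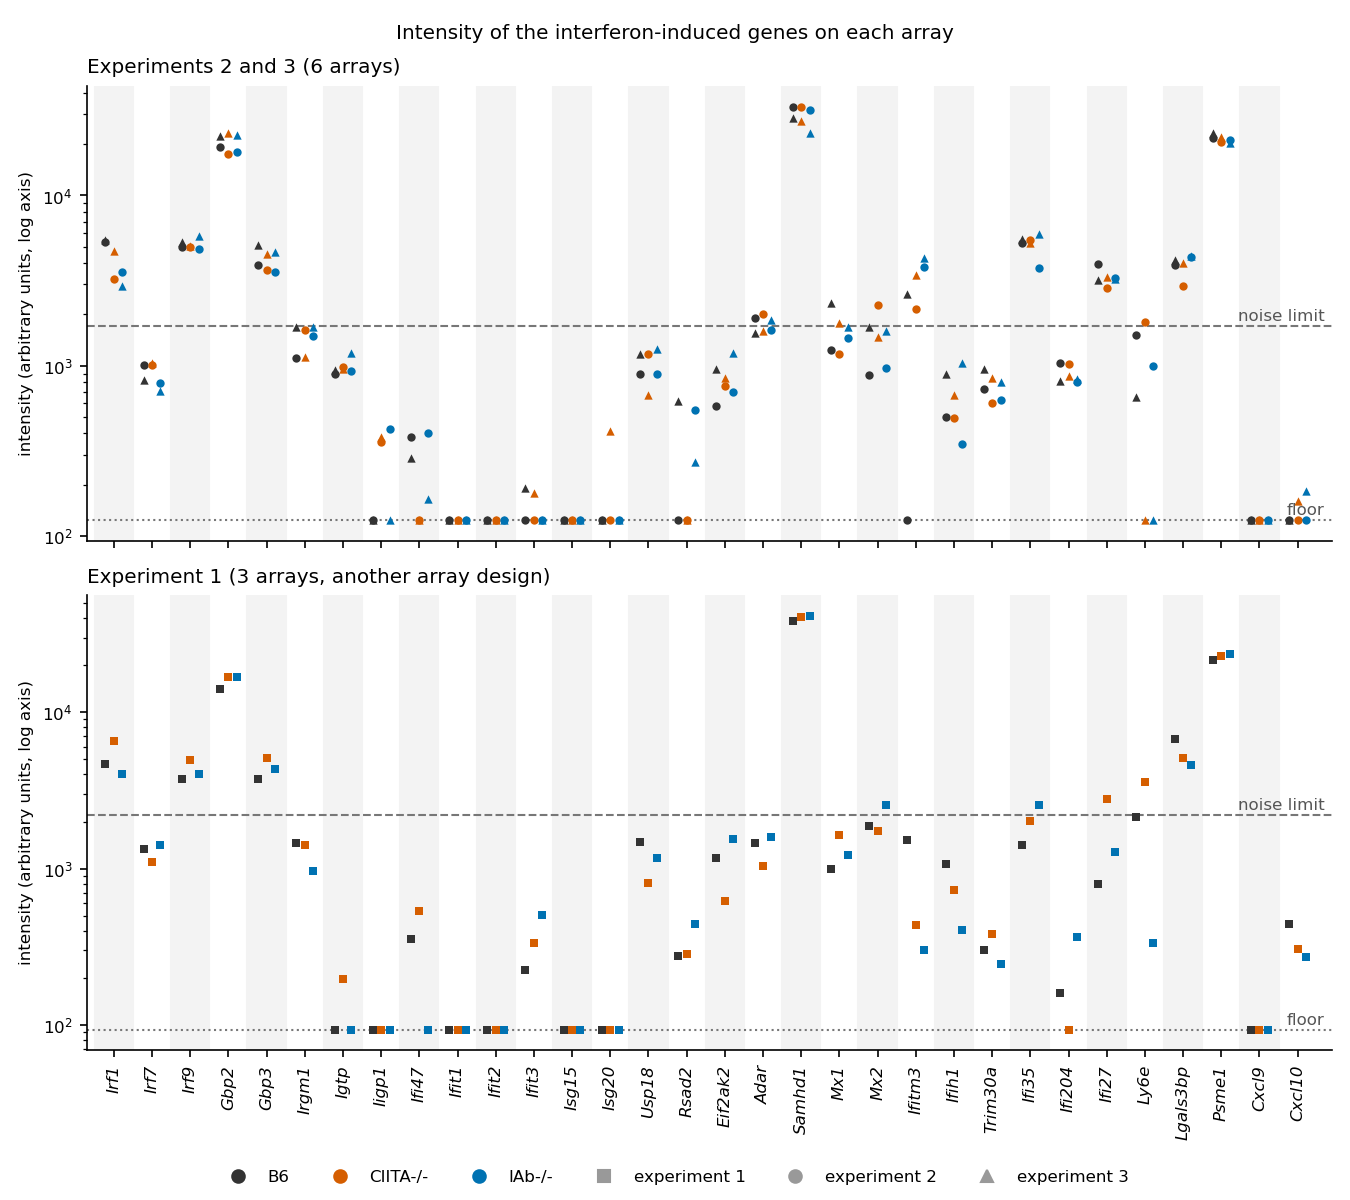
Intensity of each measured member on each array, in arbitrary units on a log axis, with experiments 2 and 3 in the upper panel and experiment 1, on another array design, in the lower. Each point is 1 array, its colour gives the group and its shape the experiment, the dashed line is the noise limit, and values under the dotted floor are drawn at it. Gbp2, Psme1 and Samhd1 lie far above the noise limit on every array, while Ifit1, Ifit2, Isg15 and Cxcl9 lie at the floor on all 9.

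Among the transcription factors, Irf1, which is induced by both kinds of interferon, was bright. In experiments 2 and 3, in that order here and below, it gave 5299 and 5483 in B6, 3211 and 4729 in CIITA-/-, and 3565 and 2944 in IAb-/-. In experiment 1 it gave 4640.1 in B6, 6585 in CIITA-/- and 4027 in IAb-/-. Both B6 arrays of experiments 2 and 3 thus lay above all 4 mutant arrays, whereas in experiment 1 the CIITA-/- array was the highest. Irf9, the DNA-binding part of the type I complex, gave 4950 and 5331 in B6, 5006 and 5031 in CIITA-/-, and 4831 and 5745 in IAb-/-, and these groups overlapped. Irf7, an amplifier of interferon alpha production, stayed within noise at 714 to 1044 over the same 6 arrays.

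The interferon-induced GTPases split into a bright and a dim set. Gbp2, a guanylate-binding protein that attacks the vacuoles of intracellular pathogens, gave 19229.5 and 22426 in B6, 17533 and 23209 in CIITA-/-, and 17980 and 22675 in IAb-/-. Its relative Gbp3 gave 3903 and 5128 in B6, 3647 and 4501 in CIITA-/-, and 3572 and 4629 in IAb-/-. For both genes the arrays of experiment 3 were the higher ones in all 3 groups and the groups overlapped. In experiment 1 Gbp2 gave 14036 in B6, 16911 in CIITA-/- and 16728 in IAb-/-.

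The immunity-related GTPases among the members, which act on pathogen vacuoles as well, were within noise on all 9 arrays: Irgm1 at 1114 to 1696, Igtp at 896 to 1187, Iigp1 at 1.6 to 427 and Ifi47 at -77 to 403 on the 6 arrays of experiments 2 and 3. Irgm2, a GTPase of the same family that is no member, lay above the noise limit on these 6 arrays and within noise in experiment 1. Mx1 and Mx2 are dynamin-like GTPases against viruses, and the RefSeq gene table lists both as transcribed pseudogenes. Mx1 gave 1234 and 2348 in B6, 1164 and 1775 in CIITA-/-, and 1446 and 1689 in IAb-/-, so 2 of these 6 values passed the noise limit. Mx2 passed it on 1 of these arrays, the CIITA-/- array of experiment 2, at 2274, with the other 5 at 879 to 1698.

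The classical antiviral effectors were at or near the background. Ifit1 and Ifit2, which bind viral RNA or hinder its translation, read -194 to -34.5 and -573 to -206 over the 6 arrays, and their relative Ifit3 5.2 to 190.7. Isg15, the ubiquitin-like modifier, read -742 to -205, and Usp18, the protease that removes it, 669.6 to 1258. Rsad2, known as viperin, read 38.0 to 619.9, Eif2ak2, the RNA-activated kinase PKR, 583 to 1192, and the exonuclease Isg20 -245 to 414. None of these passed the noise limit on any of the 9 arrays.

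Samhd1, which depletes the nucleotides that retroviruses need, was by contrast among the bright members. It gave 33221 and 28525 in B6, 33106 and 27435 in CIITA-/-, and 31574 and 23284 in IAb-/-, and 38487, 40400.5 and 41227 in the same order in experiment 1. The arrays of experiment 3 were the lower ones in every group. The RNA-editing enzyme Adar stood close to the limit, at 1557 to 2022.

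Ifitm3, a membrane protein that blocks the entry of viruses, differed widely between the arrays of B6. Its probe set gave 82.2 and 2625 in B6, 2141 and 3425 in CIITA-/-, and 3793 and 4284 in IAb-/-. A single array, B6 of experiment 2, was near 0 while the other 5 lay above the noise limit. On the design of experiment 1 another probe set carries the symbol, and it gave 1513 in B6, 438 in CIITA-/- and 301 in IAb-/-, all within noise.

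Ifi35 gave 5282 and 5514 in B6, 5496 and 5289 in CIITA-/-, and 3742 and 5911 in IAb-/-. Ifi27 gave 3954 and 3170.3 in B6, 2878 and 3342 in CIITA-/-, and 3288 and 3252 in IAb-/-. The groups overlapped for both. In experiment 1, where the limit is higher, each passed it on 1 array, Ifi35 in IAb-/- (2545) and Ifi27 in CIITA-/- (2787).

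Of the sensors of foreign nucleic acid, Ifih1, the RNA sensor MDA5, read 346 to 1031, and Ifi204, of a family that senses DNA, 800.1 to 1039.5. Trim30a, a regulator of inflammatory signalling, read 601 to 959. All 3 were within noise throughout. Cxcl9 and Cxcl10, chemokines that draw activated T cells, read -273 to -147 and 14.9 to 184.

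Psme1, the alpha subunit of the PA28 proteasome activator that aids antigen processing, was bright and even. It gave 21619.6 and 23352 in B6, 20654 and 22066 in CIITA-/-, and 21191 and 20428 in IAb-/-, with 21655, 22822 and 23427 in experiment 1. Lgals3bp, a secreted galectin-binding glycoprotein, gave 3929.7 and 4154 in B6, 2926 and 4027 in CIITA-/-, and 4330.3 and 4394 in IAb-/-. In experiment 1 it gave 6754 in B6, 5076 in CIITA-/- and 4598 in IAb-/-. The CIITA-/- array of experiment 2 was thus the lowest of its table, and B6 the highest in experiment 1.

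Ly6e, a small surface protein, gave 1508 and 658 in B6, 1814 and 46.7 in CIITA-/-, and 993 and -149 in IAb-/-. In experiment 1 it gave 2146, 3591 and 336 in the same order. Only the CIITA-/- arrays of experiments 1 and 2 passed the noise limit. On the design of experiments 2 and 3, 8 members had more than 1 probe set, and in no case did more than 1 of them pass the noise limit on any of the 6 arrays.

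For the comparisons, values under the 30th percentile of their table (123.5, and 93.2 in experiment 1) were set to it before log2 was taken, so differences of dim members are understated. On the 6 arrays fitted, those of experiments 2 and 3 with n = 2 per group, 33 probe sets of 27 members were above this floor on at least 2 arrays and were tested with 9312 probe sets in all. Ifit1, Ifit2, Isg15, Isg20 and Cxcl9 were not tested. Differences within experiment 1 stand beside the fit and took no part in it. One CIITA-/- array carries no experiment number in its title; it is treated as experiment 2, the number its group otherwise lacks. The 3 comparisons share arrays with one another, so their values are not independent.

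**Figure D2:**
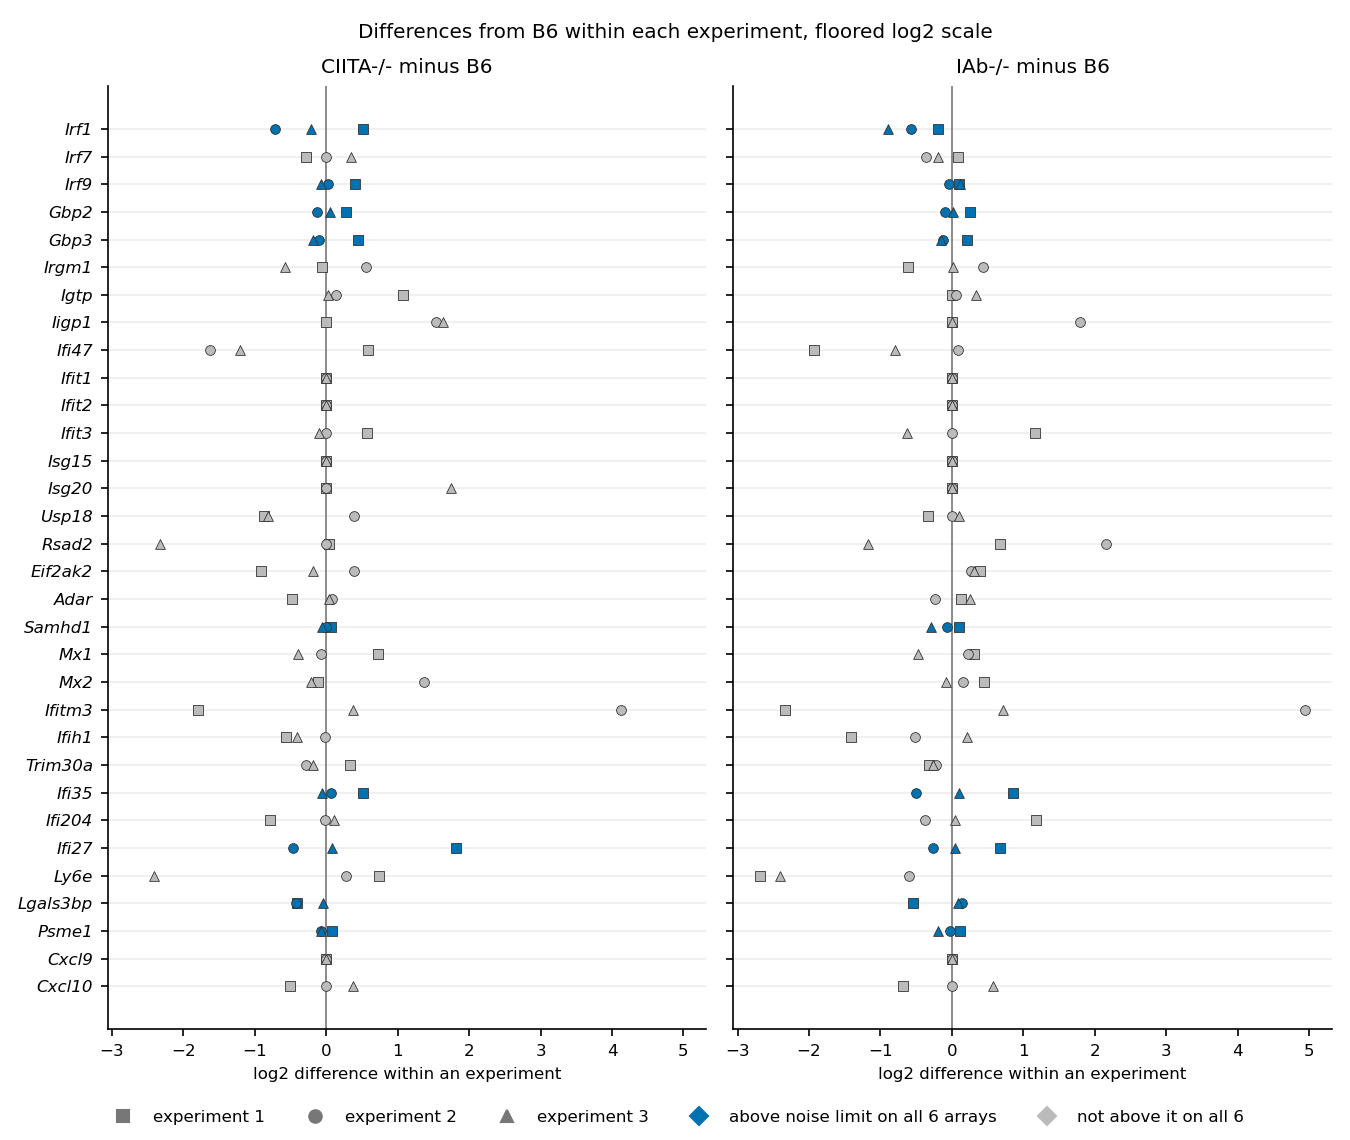
Log2 difference of CIITA-/- from B6 (left panel) and of IAb-/- from B6 (right panel) within each experiment, on the floored scale, for each measured member. Each point is the difference of 2 arrays, its shape gives the experiment, and blue marks the 9 members above the noise limit on all 6 arrays of experiments 2 and 3. Among the blue members Lgals3bp lies below 0 in all 3 experiments on the left and Irf1 on the right, and the 2 points furthest from 0 are those of Ifitm3 in experiment 2.

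The first comparison asks whether interferon-induced genes differ between CIITA-/- and B6. No member passed in CIITA-/- against B6 (limma, 0 of 33 probe sets, lowest Benjamini-Hochberg adjusted p = 0.8). Over all probe sets 0.0966% passed, 9 of 9312, and none of the 9 remained with the experiment number as a block. At an unadjusted p under 0.05 there were 2 member probe sets, or 6.1%, beside 5.86% of all probe sets, a share near the background. The median difference of the 27 members was -0.04, beside 0.01 over 6718 genes.

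The 2 were Ifi47 and Iigp1, both within noise on every array. Ifi47 gave 383 and 286 in B6 against -77.0 and -22.3 in CIITA-/-, a log2 difference of -1.42 (SE 0.46, limma adjusted p = 0.8), and in experiment 1 the difference was 0.59, the other way. Iigp1 gave 22.7 and 117.6 in B6 against 358 and 383 in CIITA-/-, a difference of 1.58 (SE 0.60, adjusted p = 0.85), and in experiment 1 both arrays were at the floor.

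Among the 9 members above the noise limit on all 6 arrays, the mean was lower in CIITA-/- for all 9, with Ifi35 at 0.00 to 2 decimals. Of the 2932 genes equally bright, 48.0% were lower. The differences were small, with a median of -0.07, and within experiment 1 the median of the same 9 was 0.40, the other way. Irf1 had the largest, -0.47 (SE 0.24, limma adjusted p = 0.93), with -0.72 and -0.21 within experiments 2 and 3 but 0.51 within experiment 1. Fitted over all 9 arrays with experiment as a block, the Irf1 difference was -0.14.

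For the other 8 the estimates ran from -0.24 to 0.00 and their 95% confidence intervals reached from -0.77 (Gbp3) to 0.66 (Ifi35). Those bounds are the widest over the 8 genes. Lgals3bp was the only member of 9 eligible ones to have one sign in all 3 experiments, at -0.41, -0.43 and -0.04 in experiments 1, 2 and 3. Its fitted difference was -0.24 (SE 0.20, limma adjusted p = 0.93). Over 2985 eligible genes 30.3% kept one sign, so the members' 11.1% was not above it. Groups did not overlap for 4 of the 27 members, beside 38.6% of 6718 genes.

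The other members named by smallest p rested on single arrays. Ifitm3 had a difference of 2.25 (SE 1.46, limma adjusted p = 0.93), which was 0.05 without the B6 array of experiment 2, and -1.79 in experiment 1 on another probe set. Rsad2, within noise, had -1.16 (SE 0.84, adjusted p = 0.93), which was -2.33 without the B6 array of experiment 2 and 0.00 without that of experiment 3. Mx2 had 0.58 (SE 0.46, adjusted p = 0.93) and 0.11 without the B6 array of experiment 2.

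**Figure D3:**
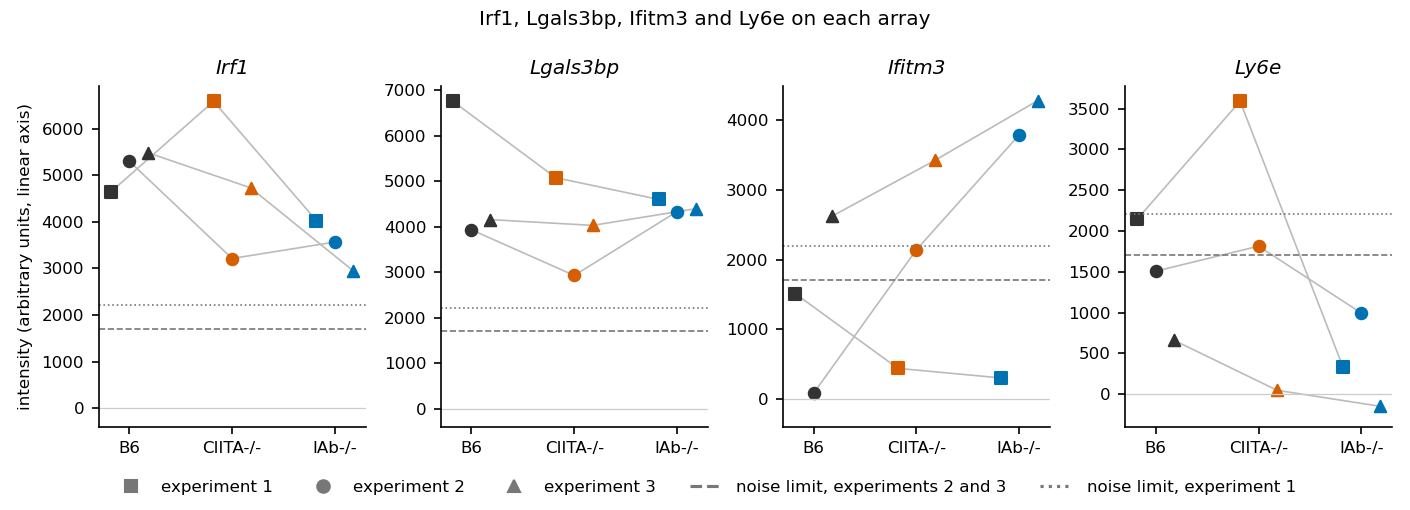
Intensity of Irf1, Lgals3bp, Ifitm3 and Ly6e on each of the 9 arrays, in arbitrary units on a linear axis, by group. Shapes give the experiment, thin lines join arrays of 1 experiment, and horizontal lines mark the noise limit of each table. The IAb-/- point of Irf1 lies below the B6 point in all 3 experiments, and the B6 point of Ifitm3 is near 0 in experiment 2 alone.

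The second comparison sets IAb-/-, the group named for a class II molecule and not for the activator, against B6. No member passed (limma, 0 of 33 probe sets, lowest adjusted p = 1), and 0.0107% of all probe sets did, 1 of 9312. At an unadjusted p under 0.05 there was 1 member probe set, or 3.0%, beside 4.31% of all probe sets. The median over the 27 members was -0.11, beside 0.01 over all genes, and it was -0.03 and 0.01 within experiments 2 and 3 and 0.10 within experiment 1.

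The probe set was that of Irf1. Its mean was 5391 ± 130.1 (SD, n = 2) in B6 and 3254 ± 439 in IAb-/-, a log2 difference of -0.73 (SE 0.24, 95% confidence interval -1.37 to -0.10) that did not pass (limma, unadjusted p = 0.031, adjusted p = 1). It was lower in IAb-/- in all 3 experiments, at -0.20, -0.57 and -0.90 in experiments 1, 2 and 3. The fitted value lay between -0.87 and -0.60 when any 1 array was left out, and was -0.56 over all 9 arrays with experiment as a block. In the 6 arrays with the experiment number as a block, the difference of -0.73 had an SE of 0.26 and a 95% interval of -1.47 to 0.003 (limma, unadjusted p = 0.051, adjusted p = 0.93). No member probe set then had an unadjusted p under 0.05 in this comparison. Irf1 was the only one of 8 eligible members with one sign in all experiments, or 12.5%, beside 28% of 3000 genes.

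Of the 9 bright members 7 were lower and 2, Irf9 and Lgals3bp, higher in IAb-/-, with a median of -0.11. Of the 2932 genes equally bright, 47.7% were lower. Within experiments 1, 2 and 3 the median of the same 9 was 0.11, -0.10 and 0.02. For the 8 other than Irf1 the estimates ran from -0.20 to 0.11 and the 95% intervals from -0.86 (Ifi35) to 0.63 (Lgals3bp). Samhd1 had -0.18 (SE 0.22). Its 2 IAb-/- arrays differ in the same direction as those of B2m, the class I light chain, at 110279 and 73146 in experiments 2 and 3. The chemokine Ccl5, at 120778 and 83290, did so too. B2m gave 84283 and 82986 in B6, where Samhd1 was also lower in experiment 3. Of the other bright members, Irf9, Gbp2, Gbp3, Ifi35 and Lgals3bp were higher on the IAb-/- array of experiment 3. Irf1, Ifi27 and Psme1 were lower on it. The part of any shift between these 2 arrays in the Samhd1 value was not tested.

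Ifitm3 was higher by 2.82 (SE 1.46, limma adjusted p = 1) in IAb-/-, and by 0.62 without the B6 array of experiment 2. In experiment 1 its other probe set had -2.33. Irf7 was at 1013 and 820 in B6 and 787 and 714 in IAb-/-, a difference of -0.28 (SE 0.17), while a second Irf7 probe set gave 0.21, and both were within noise. Ly6e was lower in IAb-/- within each experiment, at -2.68, -0.60 and -2.41 in experiments 1, 2 and 3, with a fitted value of -1.51 (SE 1.65, limma adjusted p = 1). All of its values in these 2 groups were below the noise limits, and its second probe set gave 0.46. Iigp1 (0.90, SE 0.60), Igtp (0.20, SE 0.17) and Cxcl10 (0.29, SE 0.26) were also within noise, with an adjusted p of 1 each by limma. Groups did not overlap for 6 of the 27 members, beside 32.3% of genes.

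The third comparison sets the mutants against each other. No member passed in CIITA-/- against IAb-/- (limma, 0 of 33 probe sets, lowest adjusted p = 1), and 0.0215% of all probe sets did, 2 of 9312. At an unadjusted p under 0.05 there was 1 member probe set, or 3.0%, beside 4.54% of all. The median over the members was -0.01, beside 0.00 over all genes. That probe set was of Irf7, at 1008 and 1044 in CIITA-/- against 787 and 714 in IAb-/-, a difference of 0.45 (SE 0.17, limma adjusted p = 1). It was -0.37 within experiment 1, the second Irf7 probe set gave -0.01, and all values were within noise.

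Of the 9 bright members 4 were higher and 5 lower in CIITA-/-, and of the 2932 genes equally bright 50.4% were lower. Among the 9, Lgals3bp had the largest difference, -0.35 (SE 0.20, limma adjusted p = 1), with 0.14 within experiment 1. The 95% intervals of the 8 other than Irf1 ran from -0.87 (Lgals3bp) to 0.86 (Ifi35). Irf1 itself had 0.27 (SE 0.24), with -0.15 and 0.68 within experiments 2 and 3 and 0.71 within experiment 1. Ifi47 (-1.06, SE 0.46), Rsad2 (-1.66, SE 0.84) and Iigp1 (0.69, SE 0.60) were within noise, and Mx2 (0.55, SE 0.46) passed the noise limit on 1 of these 4 arrays. None of 11 eligible members kept one sign in all 3 experiments, beside 26% of 3017 genes. Groups did not overlap for 6 of 27 members, beside 26.1% of genes.

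The members were also compared between experiments, within each group. Of the 27 tested members, 9 were higher on the array of experiment 3 than on that of experiment 2 in all 3 groups: Irf9, Mx1, Gbp2, Gbp3, Eif2ak2, Ifitm3, Trim30a, Ifih1 and Lgals3bp. That is 33.3% of them, beside 18% of 6718 genes. Samhd1 and Ly6e were lower in all 3 groups, or 7.41%, beside 16.6% of genes. This contrast was added after the data were seen, and it rests for CIITA-/- on the number given to the array without one.

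In a fit with the experiment as the contrast, no member passed (limma, 0 of 33 probe sets, lowest adjusted p = 0.57), and 0.0215% of all probe sets did. At an unadjusted p under 0.05 there were 7 member probe sets, or 21.2%, beside 7.94% of all probe sets. With any 1 array left out there were 3 to 4, or 9.09% to 13.3% of the member probe sets tested, beside 6.19% to 9.25% of all. Without the B6 array of experiment 2 the share was 9.38% beside 9.25%, and without that of experiment 3 it was 9.68% beside 9.24%, both near the background. At the noise limit as floor it was 4 of 12, or 33.3%, beside 13.3%. Gbp3 was higher in experiment 3 by 0.39 in B6, 0.30 in CIITA-/- and 0.37 in IAb-/- (fitted 0.36, SE 0.11, limma adjusted p = 0.6). Gbp2 was higher by 0.22, 0.40 and 0.33 (fitted 0.32, SE 0.11, limma adjusted p = 0.6), and Samhd1 had -0.31 in the fit (SE 0.12, limma adjusted p = 0.6). The fitted differences between groups for the same 3 genes were smaller, the furthest from 0 being -0.18. Ifih1 (0.96), Mx1 (0.59), Eif2ak2 (0.55) and Trim30a (0.41) had larger or similar values but lay within noise, apart from Mx1 on 2 arrays. Ly6e had -2.69 and a second probe set 0.94, and an Ifi204 probe set other than the brightest 1.60.

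**Figure D4:**
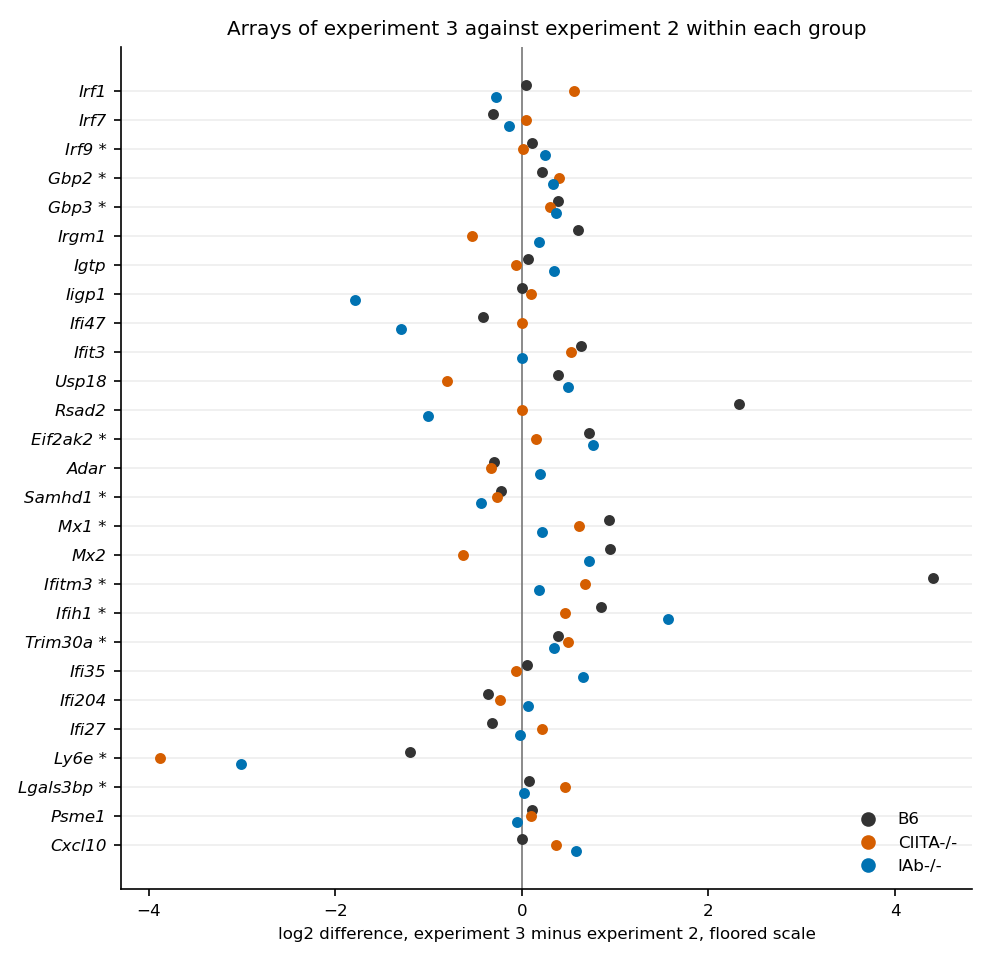
Log2 difference between the arrays of experiments 3 and 2 within each group, on the floored scale, for each tested member, with 1 point per group in the group's colour. A star marks the 11 members with one sign in all 3 groups, among which Gbp2, Gbp3 and Trim30a lie close together to the right of 0 and Samhd1 to the left.

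The genes that make and carry the interferon signal were read from a list of 27, of which 25 were measured. Above the noise limit on all 6 arrays were 17. They included the receptor chains Ifnar1, Ifnar2, Ifngr1 and Ifngr2 and the kinases Jak1, Jak2 and Tyk2. The transcription factors Irf4, Irf5 and Irf8 and the feedback inhibitors Socs1 and Socs3 were also among the 17. In experiment 1 Ifngr2 and Tyk2 were within noise in every group, and Ifngr1 in IAb-/- alone. Irf8, which directs DC development, read 19572 to 24480 over the 6 arrays, and Ifng read below 0 on all of them. The probe set of Ifna5, an interferon alpha gene, was also among the 17, at 2088 to 2690. In experiment 1 it gave 1400 in B6, which is within noise, 3271 in CIITA-/- and 3899 in IAb-/-. None of the 23 tested genes passed in either direction in any comparison (limma), and 1, 1 and 2 of them had an unadjusted p under 0.05 in CIITA-/- against B6, IAb-/- against B6 and CIITA-/- against IAb-/-. The medians were -0.01, -0.01 and 0.00.

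The smallest p in that list belonged to a probe set annotated as Ifnab, a name for an interferon alpha family gene, of the kind of probe set that is shared within a gene family. It gave 741 and 636 in B6, 167 and 136 in CIITA-/-, and 781 and 758 in IAb-/-, all within noise. The difference was -2.19 against B6 (SE 0.18, limma adjusted p = 0.088) and -2.35 against IAb-/- (SE 0.18, adjusted p = 0.09). In experiment 1 it was 1.16 and -0.07. Ifnb1, interferon beta, was within noise too, with -1.14 in IAb-/- against B6 (SE 0.34, limma adjusted p = 0.96) and 0.61 within experiment 1. In CIITA-/- against IAb-/- it had 1.37 (SE 0.34, limma adjusted p = 0.65) and 1.36 within experiment 1.

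A further list of 54 interferon-induced genes that are no members had 31 measured, of which 17 were above the noise limit on all 6 arrays. These included the antigen processing genes Psmb8, Psmb9, Psmb10, Tap1, Tap2, Tapbp and B2m and the lysosomal reductase Ifi30. None of the 30 tested passed (limma), with 1, 1 and 2 at an unadjusted p under 0.05 in the same 3 comparisons, and medians of 0.02, 0.00 and -0.05. In both comparisons with B6 the gene was Cmpk2, within noise on every array. It had 1.05 in CIITA-/- (SE 0.24, limma adjusted p = 0.59) and 0.94 in IAb-/- (SE 0.24, limma adjusted p = 0.87). Within experiment 1 these were -0.10 and 0.16. The 2 in CIITA-/- against IAb-/- were Uba7 (0.58, SE 0.20, and 0.07 within experiment 1) and Lgals9 (-0.48, SE 0.17). Lgals9, a galectin, gave 5284 and 6299 in B6, 5911 and 5171 in CIITA-/-, and 7604 and 7813 in IAb-/-. It was above both other groups in IAb-/- (0.42 against B6, SE 0.17, limma adjusted p = 1) without passing.

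The label of the cells was read against marker genes. Of 14 DC markers, 12 were above the noise limit on all 6 arrays, all but Itgam and Zbtb46. Of 7 markers of plasmacytoid DCs, the professional producers of type I interferon, only Irf8 was, which the other DCs also express. The same held for 4 of 11 macrophage markers (Csf1r, Cd14, Cd68 and Msr1), 1 of 7 B cell markers (Pax5) and none of 8 T cell and 7 NK cell markers, and Cd3e was below 0 on all 6 arrays. Of 10 neutrophil markers, Lcn2 was above the limit on all 6, and 8 were below it on all 6. The summed neutrophil markers lay at 4417 to 4548 in B6, 5952 to 6105 in CIITA-/- and 8447 to 9736 in IAb-/-. Without Lcn2, which alone was above the limit on all 6 arrays, the sum lay at 2447 to 2844 in B6. It lay at 3149 to 3357 in CIITA-/- and 3161 to 3721 in IAb-/-, so the mutants overlapped each other. Without Ngp as well, which read below 0 on all 6 arrays, the sum lay at 4491 to 4894 in B6. The mutants then gave 4935 to 6006 (CIITA-/-) and 4015 to 4444 (IAb-/-), so IAb-/- was the lowest group in experiments 2 and 3. In experiment 1 the sum of all 10 was 3862 in B6, 6177 in CIITA-/- and 7128 in IAb-/-. Without Lcn2 it was 1527, 3259 and 4205 in the same order, and without Ngp as well 4502, 5428 and 7196. In that experiment IAb-/- was thus the highest group and B6 the lowest in each sum. The part of these markers in the Irf1 values was not tested. In experiment 1 the macrophage markers above its noise limit in all 3 groups were 5, the same 4 and Mrc1, at 8051 in B6, 4770 in CIITA-/- and 2565 in IAb-/-, whereas Mrc1 was within noise in experiments 2 and 3. Adgre1 gave 3798, 1937 and 2331 there. Of the plasmacytoid DC markers, Irf8 and Klk1 were above the limit in all 3 groups of experiment 1. Klk1 gave 16472 in B6, 12716 in CIITA-/- and 11134 in IAb-/-. In experiments 2 and 3 it gave 2667 and 1773 in B6, 2325 and 1518 in CIITA-/-, and 2627 and 1508 in IAb-/-. The part of these markers in the experiment 1 values was not tested. In such bulk RNA, fewer cells of a type and less RNA per cell cannot be told apart.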

How the data were processed

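The authors deposited a linear intensity for every probe set of each array, in 2 tables of 6 and 3 arrays, by a summary method not given in the sources used here. Their scale was kept. Symbols came from the platform annotation, and of 12488 and 12654 probe sets 10833 and 10276 have 1 symbol. Those with several were not named. The members and lists were chosen with earlier results of these data known, so a pattern seen before is no independent support.

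The 6 arrays of experiments 2 and 3 were fitted by limma 3.58.1 (lmFit, eBayes) under R 4.3.3, on log2 values floored at the 30th percentile, with 3 groups in one fit and 3 residual degrees of freedom. Of 12422 probe sets that are not controls, 9312 were tested, and an adjusted p under 0.05 (Benjamini-Hochberg over all of them) counts as called. The script was tested on simulated data. In each comparison the 6 members with the smallest p are named, with any of one sign in all experiments.

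The experiment numbers in the titles pair the arrays of 3 groups. Deviations of same-numbered arrays correlated at 0.048 (B6 and CIITA-/-), 0.079 (B6 and IAb-/-) and 0.215 (both mutants) over 9312 probe sets, and at 0.206, 0.131 and 0.321 over the 4325 whose mean was above the noise limit. The lowest Spearman correlation of arrays was 0.946 in the larger table and 0.931 in the other. Array medians lay between 687 and 720.4, and between 657 and 746. The number of arrays limits the precision. Alternatives changed the floor, filter, normalization, prior, block and arrays. Motifs were searched in RefSeq promoter sequences, GRCm38.p6.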

Additional observations from a re-analysis of the deposited data

Results flagged for a closer look

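Among the probe sets with several symbols, 2 include a member. The one annotated to 4 genes was among all the probe sets tested but was left out of the member and gene counts above. It passed the noise limit only on the arrays of experiment 3 and on the IAb-/- array of experiment 2. In experiments 2 and 3 it gave 1278 and 2690 in B6, 1412 and 3401 in CIITA-/- and 2074 and 6595 in IAb-/-, with 497, 809 and 1755 in experiment 1. In IAb-/- it was higher than in B6 by 1.82, 0.70 and 1.29 (log2) in experiments 1, 2 and 3, with a fitted difference of 1.0 (SE 0.78, limma adjusted p = 1). In CIITA-/- it was higher by 0.70, 0.14 and 0.34, with a fitted difference of 0.24 (SE 0.78, adjusted p = 0.98). IAb-/- was thus the highest and B6 the lowest group in each experiment. All values of experiment 1, and those of B6 and CIITA-/- in experiment 2, were however within noise. The arrays of experiment 3 exceeded those of experiment 2 in every group. Which of the 4 transcripts it reads is not known here. The other, annotated to 2 genes, was within noise on all 9 arrays, at 183.6 and 195.4 in B6, 264 and 292.3 in CIITA-/- and 138.1 and 167.8 in IAb-/- in experiments 2 and 3. In CIITA-/- it was higher than in IAb-/- by 1.27, 0.93 and 0.80 in experiments 1, 2 and 3, with a fitted difference of 0.87 (SE 0.17, limma adjusted p = 0.47). Against B6 it was higher by 0.42, 0.52 and 0.58, with a fitted difference of 0.55 (SE 0.17, limma adjusted p = 0.78).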

How the results depend on the processing

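No member was called in any comparison under any alternative that was run. Of 215 values of the named members under alternatives, 209 kept their sign, 2 were 0.00 and the lowest adjusted p (limma) was 0.22. The 4 that turned, none of them called, were Cxcl10 in IAb-/- against B6 (-0.03 over all 9 arrays), Iigp1 in CIITA-/- against IAb-/- (-0.06 with a floor at the 40th percentile, -0.21 without the IAb-/- array of experiment 3, in a range to 1.58 without any 1 array) and Ifi47 in the same comparison (0.13 over all 9 arrays). The cause was not tested.

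Counts over all probe sets moved more. For CIITA-/- against B6 the 9 calls became 5 with the 40th percentile floor, 3 with a floor at the noise limit, 14 without a filter, 4 with a trended robust prior and 4 over all 9 arrays. For IAb-/- against B6 the 1 call became 5 without a filter, 3 with quantile normalization, and 0 with either floor, the trended prior or all 9 arrays. For CIITA-/- against IAb-/- the 2 became 1 with the 40th percentile floor, 4 at the noise limit and 7 without a filter. With the replicate block (the experiment number, pairing the arrays) limma called 0 in each. At an unadjusted p under 0.05 it gave 606, 491 and 492, or 6.51%, 5.27% and 5.28% of all probe sets. Among them were 1, 0 and 1 of the 33 member probe sets (Ifi47 in both). Without any 1 array the calls lay at 0 to 1, 0 and 0 to 1, and the members' medians at -0.15 to 0.03, -0.14 to 0.08 and -0.17 to 0.08. The members' median in IAb-/- against B6 was 0.00 without a filter, -0.02 over all 9 arrays and -0.04 with the mean of a gene's probe sets.

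For experiment 3 against experiment 2, the 2 calls became 0 at the noise limit, without a filter and without any 1 array. Member probe sets at an unadjusted p under 0.05 (limma) were 7 of 33, or 21.2%, beside 7.94% of all probe sets. At the noise limit they were 4 of 12, or 33.3%, beside 13.3%. Without any 1 array they were 3 to 4, or 9.09% to 13.3%, beside 6.19% to 9.25%. A floor at the 15th percentile, as first planned, could not be run because that percentile is below 0 (-124.2), and the 40th was added after seeing the data. With most members within noise, falls of the dim ones, and rises that stay below the noise limit, could not be told from noise here.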
